A study of Mus musculus with 2 samples.

Results

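Of the 2202 miRNA genes counted in mouse calf muscle, 5 were taken by symbol as genes of vessels: Mir126a and its opposite-strand partner Mir126b for endothelium, and Mir143, Mir145a and Mir145b for smooth muscle. The tissue was gastrocnemius, a calf muscle, from female B6CASTF1/J mice, an F1 hybrid of the strains C57BL/6J and CAST/EiJ, taken at 4 days of age, and its small RNA was sequenced. The data were 1 group of 2 libraries from separately numbered females, with no treatment and no altered gene named in the labels. Both libraries carry the same donor entry, so the labels do not say whether the females were littermates. No comparison of conditions was therefore possible, and every difference below is between these libraries.

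MicroRNAs are short RNAs cut from a hairpin, and a mature strand silences messenger RNAs that pair with its seed, bases 2 to 8 from the 5′ end. miR-126 is made in endothelial cells from within the gene of the secreted vessel protein Egfl7, and it is known for sustaining the response to vascular growth factor and vessel integrity. miR-143 and miR-145 are cut from 1 shared primary transcript in smooth muscle cells and pericytes, and they are known for promoting the contractile state of those cells. A whole muscle holds capillaries, arterioles and veins between its fibres. These genes were thus taken to report on vessel cells within a tissue made mostly of other cells. In such bulk RNA, fewer vessel cells and less of a miRNA per cell cannot be told apart. Whether other cells of the muscle gave part of the reads was not tested.

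The Mir126 hairpins are shown first because they read the same DNA on opposite strands, which decides how their reads could be counted. RefSeq sequences of build GRCm38.p6, the same assembly as mm10, were found for 2 of the 5 genes. Mir126a lies on the plus strand at chr2:26591357-26591429 and Mir126b on the minus strand at chr2:26591363-26591420. Capitals mark the mature strands that the table lists within each hairpin, read 5′ to 3′.
Mir126a hairpin: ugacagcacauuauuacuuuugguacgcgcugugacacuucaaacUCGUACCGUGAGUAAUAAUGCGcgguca
Mir126b hairpin: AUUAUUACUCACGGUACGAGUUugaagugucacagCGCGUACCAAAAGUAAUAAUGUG
All 58 bases of the Mir126b hairpin are the reverse complement of bases 7 to 64 of the 73-base Mir126a hairpin. Mir126a therefore extends past its partner by only 6 bases at its 5′ end and 9 at its 3′ end.

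The listed mature strands differ in their seeds although they come from the same DNA. No entry for miR-126a-5p was found, so that strand of Mir126a is neither marked nor compared. In the next lines the capitals mark the seed.
miR-126a-3p: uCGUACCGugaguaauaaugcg
miR-126b-5p: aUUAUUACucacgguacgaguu
miR-126b-3p: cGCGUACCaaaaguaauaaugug
No other of the 1678 mature names in the table carried the seed of miR-126a-3p, and the same held for the seeds of both Mir126b strands. Of the 22 bases of miR-126a-3p, 19 lie opposite miR-126b-5p. The deposited counts are per gene and do not separate the arms of a hairpin.

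In annotation GENCODE M21, Mir126a lies within Egfl7 on the same strand (chromosome 2, 26580014 to 26593120 in mm10). Of the 19 Egfl7 transcripts, 9 span the hairpin, which is intronic in 8 of them and falls in an exon of 1. It also lies in an intron of the single transcript of Gm20532, a protein-coding gene model that overlaps Egfl7. Mir145a (chromosome 18, 61647825 to 61647894) and Mir143 (chromosome 18, 61649196 to 61649258) both lie on the minus strand with 1301 bases between them. Mir145b (chromosome 18, 69022199 to 69022273) is on the same strand 7.37 Mb from Mir143. It is thus a separate locus with a related name and no opposite-strand partner of Mir145a. No other gene was found to overlap these 3 hairpins in the annotation used here.

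Library 1 held 5569392 reads assigned to a gene on its own strand and library 2 held 4336759. A further 36.9% and 37.6% of all reads matched several places and belonged to no gene. The muscle marker Mir206 had the most counts in both libraries, at 129336 and 119323 CPM, which is the gene's share of the own-strand gene counts scaled to a total of 1000000. Of the 9 muscle-list genes in the tables, 8 were detected, which here means 2 CPM or more in both libraries, and none was at 0.

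By reads assigned to a gene, Mir126a and Mir143 were both among the highest-counted miRNA genes of the muscle. Mir145a was far below them and the other members were at or near 0. Mir126a had 164400 counts in library 1, or 29518 CPM (95% exact Poisson interval 29376 to 29662), and 95110 in library 2, or 21931 CPM (21792 to 22071). Mir143 had 139034 counts in library 1, or 24964 CPM (24833 to 25096), and 123995 in library 2, or 28592 CPM (28433 to 28751). Ranked among the 2202 genes, Mir126a stood at place 10 in library 1 and 13 in library 2, and Mir143 at 12 and 10. These places leave out reads that matched several places. Mir1a-2 at 17.0 CPM and Mir133a-1 at 5.24 CPM, for example, share 28 and 31 bases with another counted gene, so their places are uncertain. The means of Mir126a and Mir143, 25725 ± 5365 and 26778 ± 2565 CPM (SD, n = 2), lay closer together than the spread of either gene. No order can therefore be given to these 2 genes. These intervals, like those below, cover counting error only, since the reads carry no molecular identifiers.

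Mir145a had 3034 counts in library 1, or 545 CPM (95% exact Poisson interval 526 to 564), and 2205 in library 2, or 508 CPM (487 to 530.1). At 527 ± 25.7 CPM (SD, n = 2) it ranked 107 and 112. It lay below both leading genes in each library by far more than the spread between libraries. Mir126b had 3 counts in library 1, or 0.539 CPM (0.111 to 1.57), and 2 in library 2, or 0.461 CPM (0.0559 to 1.67). Mir145b had 0 counts in both, which allows up to 0.539 and 0.692 CPM. Mir126b was thus no higher than what a count of 0 allows, and its order relative to Mir145b could not be settled at this depth.

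**Figure D1:**
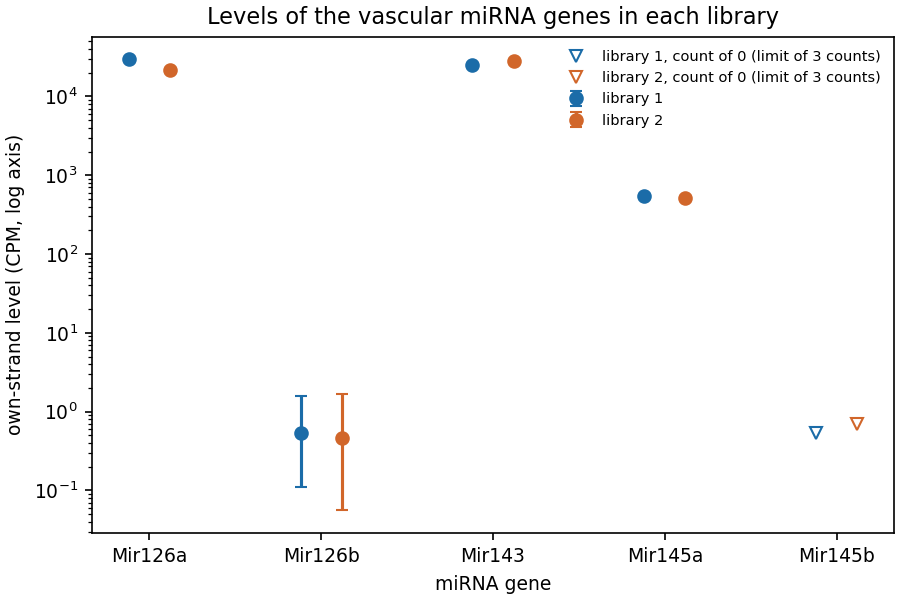
Own-strand level of each gene in CPM on a log axis, for library 1 (blue) and library 2 (orange), with 95% exact Poisson intervals, and open triangles at the limit of 3 counts where the count was 0. Mir126a and Mir143 lie between 21931 and 29518 CPM, Mir145a near 527 CPM, and Mir126b and Mir145b below 1 CPM.

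By the threshold of 2 CPM in both libraries, 3 of the 5 genes were detected, against 15.2% of all counted genes. The 5 genes together held 5.50% of the gene counts in library 1 and 5.10% in library 2, a mean of 5.30% ± 0.283 (SD, n = 2). The endothelial pair contributed 2.95% and 2.19%, and the smooth muscle genes 2.55% and 2.91%. The share of the endothelial pair was thus lower and that of the smooth muscle genes higher in library 2. The rise was that of Mir143, from 2.50% to 2.86%, whereas Mir145a went from 0.0545% to 0.0508%. Of all reads, including those assigned to no gene, the 5 genes held 2.94% and 2.61%.

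Nearly all of the measured Mir126a signal depended on counting by strand. In the column that ignores strand, Mir126a had 3 reads in library 1 and 4 in library 2, against 164400 and 95110 on its own strand. The opposite-strand column of Mir126b held 164397 and 95106 reads, which are the Mir126a reads seen from its partner. The difference is again 3 and 4 reads, the reads that touch only the part of the Mir126a hairpin outside Mir126b. Reads on the Mir126b strand numbered 3 and 2, as both its own-strand column and the opposite-strand column of Mir126a show. They were 0.00182% and 0.00210% of the Mir126a counts.

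Mir143, Mir145a and Mir145b overlap no counted gene, and their counts were identical with and without strand. Their opposite-strand columns held 0 reads in both libraries.

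**Figure D2:**
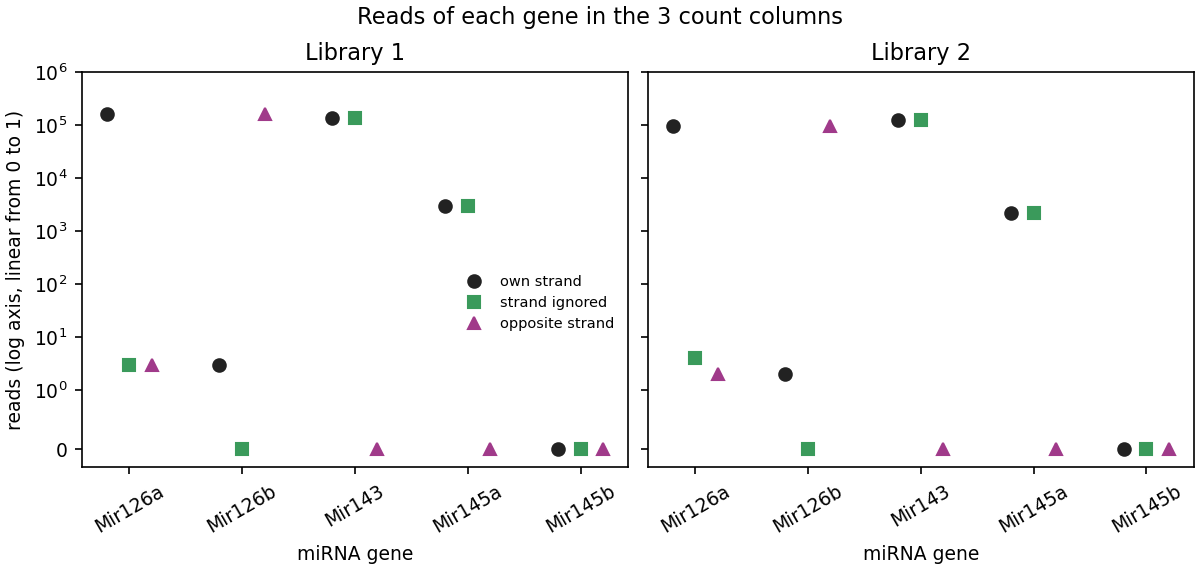
Reads of each gene in the own-strand (circles), strand-ignored (squares) and opposite-strand (triangles) columns of each library, on an axis that is linear from 0 to 1 and logarithmic above. Mir126a falls from 164400 to 3 reads in library 1 and from 95110 to 4 in library 2 when strand is ignored, while Mir143 and Mir145a keep the same count.

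Mir126a was not alone in this. Among the 232 genes with 100 or more own-strand counts in both libraries, 22 genes (9.48%) lost at least 99% of them when strand was ignored, and all of these overlap a counted gene on the other strand. Mir126a lost the most reads after Mir378a, a miRNA gene in an intron of a metabolic coactivator gene, and made up 23.5% of the loss in library 1 and 18.5% in library 2. Of those 22 genes, 10 had no read on the opposite strand in either library, and 10 had a larger opposite-strand percentage than Mir126a as a mean of both libraries.

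Mir143 and Mir145a lie side by side, yet Mir143 had about 46 to 56 times the counts of its neighbour. The ratio of Mir143 to Mir145a counts was 45.8 (95% exact interval 44.2 to 47.5) in library 1 and 56.2 (53.9 to 58.7) in library 2, a mean of 51.0 ± 7.36 (SD, n = 2). Per base of annotated hairpin, 63 for Mir143 and 70 for Mir145a, the ratio was 50.9 and 62.5. This and the ratios of genes below are ratios of reads, and how evenly the libraries captured each miRNA was not tested. The ratio in library 2 was 1.23 times that in library 1 (95% counting interval 1.16 to 1.30, two-sided Fisher's exact test on the 4 counts, p = 3.51e-13), a comparison of these libraries that needs no scaling between them.

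Unequal counts of neighbours were common among the detected genes. Across 112 pairs of neighbouring detected genes on 1 strand and at most 10 kb apart, the median absolute log2 ratio of counts was 2.28, or 4.85-fold. For Mir143 and Mir145a it was 5.67, and 19 of the 112 pairs (17.0%) were further apart. The change of the Mir143 to Mir145a ratio between libraries, 0.30 on the log2 scale, was close to the median change over these pairs of 0.24, and 44 pairs changed more. Pairs can share a gene and so are not independent.

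**Figure D3:**
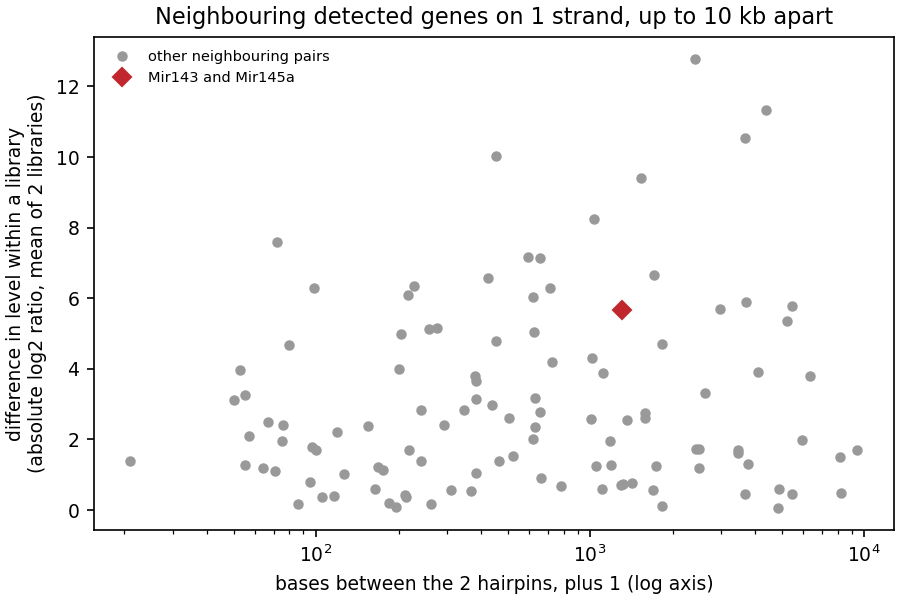
Absolute log2 ratio of counts within a library, averaged over both libraries, against the number of bases between neighbouring detected genes on 1 strand (log axis). Mir143 and Mir145a (red diamond) differ by 5.67, above the median of 2.28 but below 19 other pairs.

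Mir126a and Mir143 changed places between the libraries. The ratio of Mir126a to Mir143 counts was 1.18 (95% exact interval 1.17 to 1.19) in library 1 and 0.767 (0.761 to 0.774) in library 2. Per hairpin base it was 1.02 and 0.662. The counts of Mir126a thus exceeded those of Mir143 in library 1 and fell short of them in library 2. The ratio in library 2 was 0.649 times that in library 1 (95% counting interval 0.642 to 0.656). Mir126a exceeded Mir126b by a factor of 54800 (18751 to 265733) in library 1 and 47555 (13164 to 392683) in library 2, and the few Mir126b reads account for those wide intervals. Mir145a was at least 1011-fold higher than Mir145b in library 1 and at least 735-fold higher in library 2, taking the limit of 3 counts per library.

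Between the libraries, Mir126a was lower and Mir143 higher in library 2. On counts scaled by TMM, edgeR's trimmed mean method, the log2 difference of library 2 over library 1 was -0.45 (95% exact counting interval -0.46 to -0.44) for Mir126a. It was 0.17 (0.16 to 0.18) for Mir143 and -0.12 (-0.20 to -0.04) for Mir145a. An exact two-sided binomial test of the counts, with Benjamini-Hochberg adjustment over the 335 detected genes, called all 3 of them, with an adjusted p of 0.00548 for Mir145a. The neighbours Mir143 and Mir145a were called in opposite directions.

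The test called 55.5% of all detected genes, 28.7% higher and 26.9% lower in library 2, so being called does not set the 3 genes apart. The test compares 2 libraries beyond counting error and says nothing of the spread between animals. The spread between these libraries, estimated by edgeR over all detected genes, was a coefficient of variation of 22.0% beyond counting error. Animals and library preparation cannot be told apart in it, since each animal gave its own library. On the same TMM-scaled counts the SD of Mir126a was 21.9% of its mean, level with this spread, and that of Mir143 was 8.49% and that of Mir145a 5.97%, both well below it. The side on which Mir126a falls depends on the genes used. Over genes at 10 CPM or more its SD was 20.4% against a spread of 17.6%, and over all genes with a count in either library 25.2% against 23.7%, while Mir143 and Mir145a stayed below the spread in both.

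Highly counted genes varied less than the rest, and among them Mir126a differed most. The limit of 10000 CPM used for this was chosen after the data were seen. None of the other 21 genes at 10000 CPM or more had a larger absolute log2 difference than Mir126a under TMM, DESeq2 size factors or library totals. The next was Mir99a at -0.35, and 6 of the 22 genes differed more than Mir143. Differences near that of Mir126a were also found below this limit, such as -0.43 for Mir214 at 3127 CPM and -0.38 for Mir10b at 5850 CPM. Over all 335 detected genes, 74 (22.1%) had a larger absolute difference than Mir126a, 197 (58.8%) a larger one than Mir143 and 245 (73.1%) a larger one than Mir145a.

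**Figure D4:**
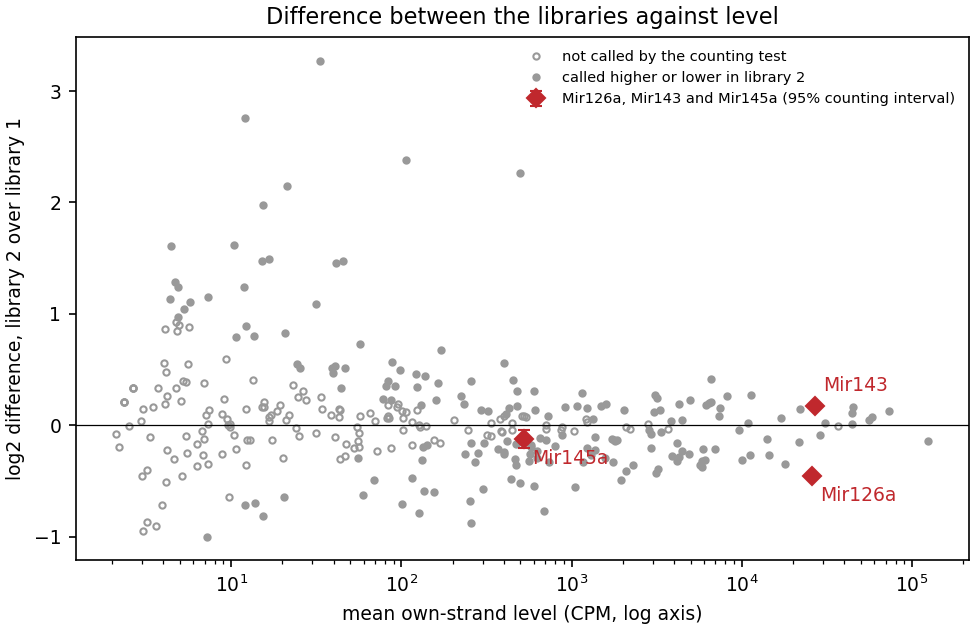
Log2 difference of library 2 over library 1 against mean level in CPM (log axis) for the 335 detected genes, filled where the counting test called them and open where it did not. Mir126a at -0.45 lies below the other genes above 10000 CPM, Mir143 at 0.17 and Mir145a at -0.12 lie among genes of their level, and bars are 95% counting intervals.

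The genes nearest to the members in level came from other families. The measure was the distance of log2(CPM + 0.5) over the 2 libraries. Mir431 and Mir23b lay nearest to Mir126a, at distances of 0.35 and 0.40, and Mir431 and Mir379 nearest to Mir143, at 0.23 and 0.30. Mir431 and Mir379 belong to the imprinted Dlk1-Dio3 domain, and Mir23b is a gene with roles in vessel growth. Nearest to Mir145a were Mir188 and Mir370, at 0.14 and 0.15. With 2 libraries, such likeness is mainly one of level. Mir431, for example, had a log2 difference between the libraries of -0.09, against -0.45 for Mir126a.

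Among other miRNAs with known roles in endothelium and vessel growth, more genes were called lower than higher in library 2. Of the 27 listed genes 25 were detected, 13 of them called lower and 4 higher, while 8 were not called, against 26.9% lower and 28.7% higher over all detected genes. Their median log2 difference was -0.11, against 0.03 over all detected genes. The highest were Mir322, a hypoxia-responsive gene, Mir23b and Mir21a, which is widely expressed, at 22057 ± 1806, 21631 ± 1348 and 16868 ± 766 CPM (SD, n = 2). Mir23b was lower in library 2 at -0.15, whereas Mir322 at 0.14 and Mir21a at 0.07 were higher. These genes are also expressed in other cell types, including muscle fibres and their precursors, so the list is no measure of endothelium alone. Some of the 13 lower calls are close neighbours, such as Mir23b and Mir27b, 154 bases apart, so they are not independent. The test also calls smaller differences where counts are high, so the share called depends on level.

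Few of the other miRNAs with roles in vascular smooth muscle were called. Of the 17 listed genes 15 were detected, 3 of them called higher in library 2, none lower, and 12 not called, with a median of 0.17. This is fewer than the 28.7% called higher over all detected genes would give, so the count is no result about the list. Its highest members were Mir21a, Mir28a at 2076 ± 4.48 CPM and Mir26a-2 at 171 ± 57.8 CPM. The log2 difference was 0.07 for Mir21a and 0.68 for Mir26a-2, both called, and -0.02 for Mir28a, which was not called. The third call was Mir490 at 0.80, from 43 and 59 counts, a gene named after its values were seen. With DESeq2 size factors 1 member of this list was called lower. Most of its members had few counts, and Mir21a, Mir221 and Mir222 also stand in the endothelial list.

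Most leukocyte markers were, like Mir126a, lower in library 2. The leukocyte and megakaryocyte list summed to 1013 CPM in library 1 and 652 in library 2. Of its 7 genes 5 were detected, 4 of them called lower in library 2 and none higher, against 26.9% lower over all detected genes, and Mir142b and Mir146b were at 0 in both. Myeloid Mir223 differed by -0.87, haematopoietic Mir142 by -0.79 and the immune-induced Mir146 by -0.57. Mir223 had 1844 and 797 counts, so these markers were present in both libraries. The part of leukocytes in the Mir126a difference was not tested, and Mir126 is also known in some blood progenitors and platelets.

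Connective tissue and cartilage markers summed to 5418 and 4243 CPM. Of 5 listed genes 4 were detected, 2 of them called lower in library 2 and none higher, a count too small to read against the 26.9% over all detected genes. Fibroblast-associated Mir214 differed by -0.43 and the cartilage gene Mir140 by -0.29, both called, while Mir199b at -0.23 and Mir199a-2 at -0.07 were not. Mir199a-1 had 0 counts in library 1 and 1 in library 2. The part of these cells in the members' differences was not tested.

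Erythroid markers did not follow Mir126a. They summed to 96.8 CPM in library 1 and 119.7 in library 2, and of 3 listed genes 2 were detected. Mir451a was called higher at 0.40 and Mir144 at -0.09 was not called. Mir451b had 0 counts in library 1 and 1 in library 2. The skeletal muscle list summed to 130998 and 120702 CPM, with 3 of its 8 detected genes called lower in library 2, 1 higher and 4 not called, beside 26.9% lower and 28.7% higher over all detected genes. Mir206 differed by -0.14, the slow-fibre genes Mir499 by -0.33 and Mir208b by -0.60.

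**Figure D5:**
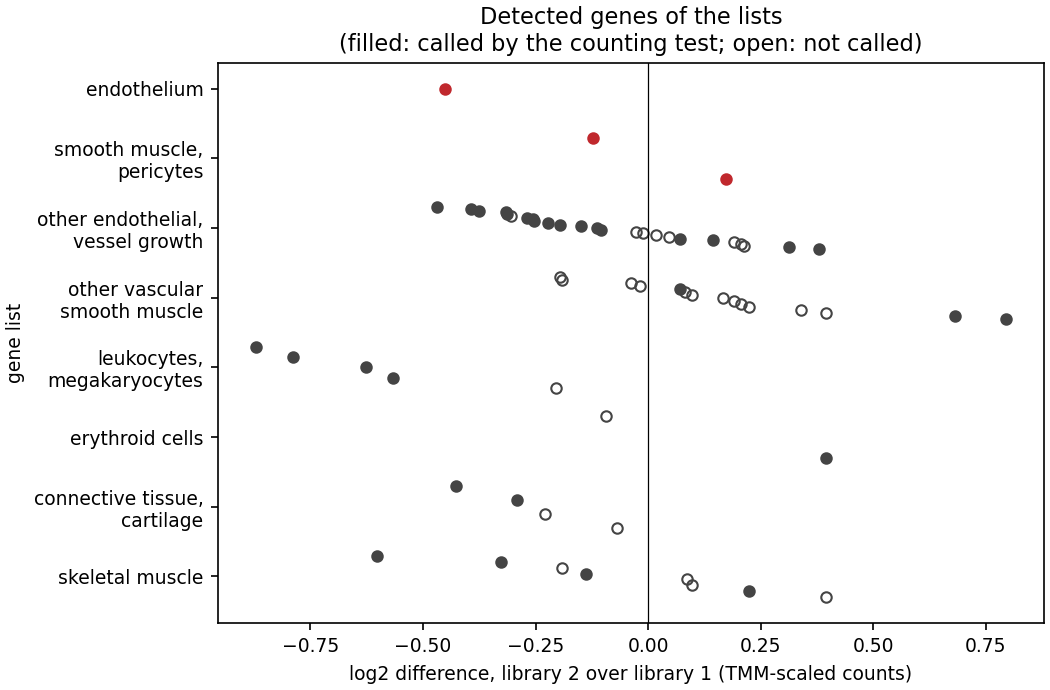
Log2 difference of library 2 over library 1 for the detected genes of each list, 1 point per gene, filled where the counting test called it and open where it did not. The detected leukocyte and connective tissue genes lie below 0 with Mir126a, though 1 of 5 and 2 of 4 of them were not called. The other vascular smooth muscle genes have a median of 0.17, with 12 of 15 not called.

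Reads that match several genes are not counted, so stretches shared between genes bear on their levels. Neither Mir143, Mir145a nor Mir145b shared 20 bases or more with another counted gene on either strand, and Mir126a did so only with Mir126b, on the opposite strand. The longest stretch that Mir145a shares with another gene in the same sense is 17 bases, with Mir145b, and for Mir126a and Mir143 it is 11 bases. Matches outside the counted genes were not searched. Some other genes named above have a same-sense match of at least 20 bases in another counted gene, so their levels are uncertain. They are Mir23b, Mir27b, Mir28a, Mir133b, Mir146, Mir146b, Mir199b, Mir199a-1, Mir199a-2 and the Mir1a, Mir133a, Mir26a and Mir29b genes. The 0 of Mir146b is uncertain for the same reason. Mir1a-2, Mir142, Mir142b, Mir451a and Mir451b overlap a counted gene on the opposite strand, as Mir126a does, and their values rest on the own-strand column.

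The hairpins also differed in predicted folding. Their minimum free energies were -31.2 kcal/mol for Mir126a, -19.3 for Mir126b, -36.9 for Mir143, -30.3 for Mir145a and -25.1 for Mir145b. Per base, Mir143 at -0.59 was the most stable of the members, and Mir126b and Mir145b at -0.33 each were the least stable. Mir126a and Mir145a at -0.43 each lay at the median of detected genes of -0.43 (quartiles -0.48 to -0.38). Undetected genes were not summarised, and whether folding bears on detection was not tested.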

How the data were processed

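Each library has 1 table from the authors, with raw counts per gene on mm10 with GENCODE M21, per the labels and the deposited description. RNA was below 30 bases in size. Aligner and counter: not given in the sources used here. The deposited counts come in 3 columns, whose sums show strand ignored, own strand and opposite strand. The 4 lines that name no gene were left out. They held, of all reads in libraries 1 and 2, 36.9% and 37.6% matching several places, 8.03% and 9.26% unmapped and 1.70% and 2.09% in no feature. All 2202 identifiers matched GENCODE M21.

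Levels are own-strand CPM. Libraries were scaled by TMM (edgeR 4.0.16 in R 4.3.3), and DESeq2 1.42.0 and plain totals served as alternatives. Detected genes were compared by an exact binomial test with Benjamini-Hochberg adjustment (threshold 0.05), a script tested on simulated data. Hairpins were folded with RNAfold 2.7.2. Other steps used Python 3.11.15, scipy 1.17.1, pandas 2.3.3 and numpy 2.4.6, with figures from matplotlib 3.10.9. Genes named were the 5 members, their overlapping and host genes, the 2 nearest in level to each detected member, and the 3 highest of each of 8 lists. Further list members, Mir99a and Mir378a were named after their values were seen. Members and lists were chosen with earlier results of these data known. The comparison of neighbouring genes, the scale per hairpin base and the limit of 10000 CPM were chosen after the data were seen.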

Additional observations from a re-analysis of the deposited data

Results flagged for a closer look

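Reads that matched several places lie outside the columns used for the members. They made up 36.9% of the reads of library 1 and 37.6% of those of library 2. They belong to no gene, and how many came from the members was not tested. With 2 libraries, neither was checked for standing far from the others.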

How the results depend on the processing

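Of 118 values recomputed under alternatives, 17 moved and none reversed. The other 101 kept direction and call, lay within 1 SD of the main value, or, for counts, within 1.5 times. With 2 libraries, a value with 1 library left out always lies within 1 SD, so those values could not move. The share of neighbouring pairs further apart than Mir143 and Mir145a was 16.3% at gaps up to 50 kb. It was counted as kept without a rule. With strand ignored, the mean level of Mir126a went from 25725 to 0.831 CPM, Mir126b to 0, Mir143 to 30494 and Mir145a to 599.9 CPM, since the gene total shrinks, the members' share went from 5.30% to 3.11% and the ratio of Mir126a to Mir143 to 2.69e-05. The difference of Mir126a between libraries and its ratio to Mir126b then had too few reads to compute. With all reads as the denominator the levels were 13486 CPM for Mir126a, 0.262 for Mir126b, 13972 for Mir143 and 275 for Mir145a, and the share 2.77%. Per hairpin base, a scale added after seeing the data, Mir126a to Mir126b was 40662. The log2 difference ranged over scalings and filters from -0.52 to -0.42 for Mir126a, 0.10 to 0.20 for Mir143 (also with strand ignored) and -0.19 to -0.09 for Mir145a, whose adjusted p by the binomial test ranged from 1.25e-05 to 0.0384. Members detected went from 3 to 2 with strand ignored and to 4 at 1 count. Of 48 list counts 11 changed by any number. With DESeq2 size factors, lower calls went from 0 to 1 for vascular smooth muscle, 13 to 15 for endothelial, 4 to 5 for leukocyte and 2 to 3 for connective tissue genes, and higher calls from 1 to 0 for skeletal muscle. With strand ignored, higher calls went from 1 to 0 in both the erythroid and the skeletal muscle list. The ratio of Mir126a to Mir143 crossed 1, from 0.767 to 1.18, depending on the library left out. Leaving out either library left the value of the other with no test, from 21931 to 29518 CPM for Mir126a and 24964 to 28592 CPM for Mir143. No paired analysis was possible because there is 1 group.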
